A study of Mus musculus with 21 samples.

Results

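A set of 10 genes of vascular endothelial growth factor (VEGF) and angiopoietin signalling were followed across endothelial cells of mouse brain, lung and liver. These are the VEGF receptors Flt1, Kdr and Flt4, the co-receptors Nrp1 and Nrp2, the angiopoietin receptor Tek and its relative Tie1, and the ligands Angpt2, Vegfa and Vegfc. They were chosen by name, with earlier results of these data known. All 10 were found among the 24176 genes of the bulk RNA table and among the 32285 genes of the single-cell table. Cells came from C57BL/6J mice of 2 to 4 months with no genetic change or treatment named in the labels. After perfusion and enzymatic digestion, viable CD31+ cells lacking PDGFRβ and CD45 were sorted, and brain tissue alone passed a myelin removal step. Bulk RNA was measured in 3 brain, 3 lung and 3 liver libraries, and single cells in 1 brain library of 9405 barcodes. The labels call the bulk libraries biological replicates without naming animals, so each p-value reflects the spread among libraries.

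VEGF-A acts on endothelial cells mainly through Kdr (VEGFR2), whereas Flt1 (VEGFR1) binds VEGF-A tightly, signals weakly and, also as a soluble form, acts as a decoy. VEGF-C acts through Flt4 (VEGFR3), best known for lymphatic growth, and Nrp2 and Nrp1 are co-receptors that also bind class 3 semaphorins. Angiopoietins bind Tek (Tie2) in quiescent vessels, where Tie1 modulates its signalling and Angpt2 can act as an antagonist. VEGF-A maintains fenestrated capillaries such as those of endocrine glands and the liver sinusoid.

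Total counts per bulk library ranged from 2992101 (lung library 2) to 25690571 (liver library 2). Levels are CPM (read counts of a gene as a share of the library total, on the usual CPM scale) with totals corrected by edgeR's trimmed mean of M-values (TMM), and they are compared between tissues, not between genes. The 5 endothelial check genes Pecam1, Cdh5, Cldn5, Egfl7 and Esam summed to between 2715 and 10758 CPM in the 9 libraries. Of 6 lung epithelium markers, 5 had a mean above 1 CPM in lung, with sums of 283, 1742 and 565 CPM made up mostly of the club cell gene Scgb1a1. Hepatocyte markers summed to between 342 and 702 CPM in liver. In brain the same list reached 923 CPM through Ttr, also a choroid plexus gene, with Alb at 0 in all 3 libraries. Leukocyte markers summed to between 112 and 136 CPM in lung and to at most 23.9 CPM elsewhere. In bulk libraries, fewer cells of a type and less RNA per cell cannot be told apart.

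Flt1, the VEGF-A decoy receptor, was highest in brain. It stood at 2783, 3077 and 3021 CPM in the 3 brain libraries, at 604, 646 and 573 CPM in lung and at 706, 834 and 579 CPM in liver. Every brain library lay far above every lung and liver library, and lung and liver overlapped. By edgeR's quasi-likelihood test with Benjamini-Hochberg adjustment over 13216 genes, Flt1 was higher in brain than in lung by 2.28 ± 0.19 on the log2 scale (SE; adjusted p = 4.12e-06) and than in liver by 2.07 ± 0.19 (adjusted p = 5.06e-06). Between lung and liver the log2 difference was -0.22, which was not called.

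Kdr, the main signalling receptor for VEGF-A, ran the other way. It measured 391, 348 and 424 CPM in brain, 627, 872 and 1008 CPM in lung and 1255, 1525 and 1334 CPM in liver. The 3 tissues did not overlap, in the order liver, lung, brain. Kdr was lower in brain than in lung by edgeR (log2 difference -1.11 ± 0.22 SE, adjusted p = 0.00402) and below its liver level (-1.82 ± 0.22, adjusted p = 5.88e-05). A gene was called at an adjusted p under 0.05 and a log2 difference of at least 1 in size. Lung against liver had an adjusted p of 0.0391 but a log2 difference of -0.71, under that minimum. Without lung library 3 the brain-lung difference of Kdr was -0.96 (adjusted p = 0.0243 by edgeR, with 0.00138 to 0.0243 over all alternatives), so it no longer met the minimum size.

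The ratio of Flt1 to Kdr counts within a library does not depend on scaling between libraries. Brain libraries gave 7.11, 8.85 and 7.12, lung libraries 0.963, 0.741 and 0.568, and liver libraries 0.563, 0.547 and 0.434. All 3 brain libraries lay above the other 6, with a mean of 7.69 ± 1.00 (SD, n = 3) against 0.757 ± 0.198 in lung and 0.515 ± 0.0700 in liver. Lung library 3 fell close to the liver libraries. An exact test of 3 against 3 libraries cannot pass the threshold, and no p is given for the ratios.

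**Figure D1:**
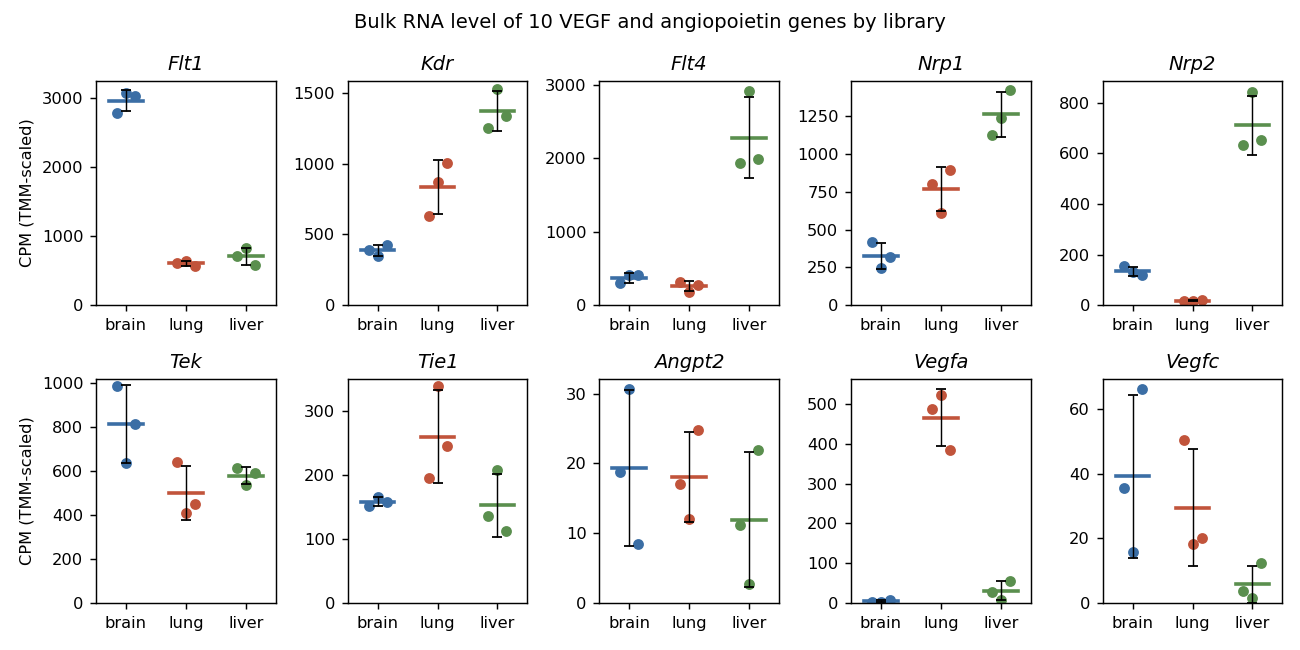
TMM-scaled CPM (y axis, one scale per gene, starting at 0) of the 10 genes in each bulk library of brain, lung and liver; points are libraries, coloured lines are means and black bars are SD (n = 3). Flt1 is highest in brain, Kdr, Flt4, Nrp1 and Nrp2 are highest in liver, and Vegfa is highest in lung at 386 to 523 CPM.

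Nrp1, a co-receptor of Kdr and receptor for semaphorin 3A, followed the order of Kdr. Its libraries held 417, 246 and 316 CPM in brain, 799, 610.5 and 894 CPM in lung and 1123, 1241 and 1424 CPM in liver. The 3 tissues did not overlap. Nrp1 was lower in brain than in lung (log2 difference -1.23 ± 0.24 SE, edgeR adjusted p = 0.00384) and below its liver level (-1.95 ± 0.24, adjusted p = 8.07e-05). Lung against liver stood at -0.72, with an adjusted p of 0.0571.

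Flt4, the VEGF-C receptor, and Nrp2, its co-receptor, were both highest in liver and, by their means, lowest in lung. Flt4 measured 296, 416 and 405 CPM in brain, 317, 184 and 279.5 CPM in lung and 1932, 2917 and 1997 CPM in liver. Liver stood apart, and brain and lung overlapped. Flt4 was lower than in liver by 2.61 ± 0.27 log2 units in brain (SE, edgeR adjusted p = 1.27e-05) and by 3.13 ± 0.27 in lung (adjusted p = 5.06e-06), while brain against lung (0.52, adjusted p = 0.214) was not called.

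Nrp2 separated all 3 tissues. It measured 154, 130.2 and 119 CPM in brain, 15.6, 17.8 and 19.8 CPM in lung and 633, 844 and 653 CPM in liver. The mean in liver was 40.0 times that in lung and 5.28 times that in brain. Each of its 3 comparisons was called by edgeR, at log2 differences of 2.92 ± 0.26 (SE) for brain against lung (adjusted p = 5.8e-06), -2.40 ± 0.25 for brain against liver (adjusted p = 1.56e-05) and -5.32 ± 0.29 for lung against liver (adjusted p = 9.29e-08). The ratio of Nrp2 to Nrp1 counts was 0.0195, 0.0292 and 0.0222 in the lung libraries, against 0.370 to 0.529 in brain and 0.459 to 0.680 in liver.

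Because lymphatic endothelium is rich in Flt4, its markers are given beside these genes. The 6 lymphatic markers summed to between 1.12 and 6.50 CPM in brain, 784 and 1117 CPM in lung and 541 and 1095 CPM in liver. Most of each lung and liver sum was Lyve1, which liver sinusoidal cells also carry. Prox1, the defining lymphatic transcription factor, averaged 6.80 CPM in lung and 9.96 CPM in liver, Pdpn averaged 2.22 CPM in lung and 1.79 CPM in liver, and Ccl21a was at 0 in every library. Mmrn1, another lymphatic marker, measured 18.7, 8.10 and 51.9 CPM in lung and 44.2, 88.0 and 59.9 CPM in liver, and Reln 13.7, 1.30 and 0 CPM in lung and 5.53, 18.2 and 22.9 CPM in liver. Both had a higher mean in liver, as Flt4 and Nrp2 did, though for Mmrn1 and Reln the lung and liver libraries overlapped. The part of lymphatic cells in the Flt4 and Nrp2 levels was not tested.

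Vegfc, the ligand of Flt4, was low and scattered. It measured 35.6, 15.9 and 66.1 CPM in brain, 50.3, 18.1 and 20.2 CPM in lung and 3.54, 1.49 and 12.3 CPM in liver. Brain and lung overlapped, and both lay above liver. Vegfc was higher in brain than in liver (log2 difference 2.76 ± 0.83 SE, edgeR adjusted p = 0.0358), and lung against liver stood at 2.35 with an adjusted p of 0.0694. Without liver library 3 the brain-liver difference was 3.95, and without brain library 3 it was 2.15. The brain-liver call was lost on leaving out brain library 1 (adjusted p = 0.0638), brain library 3 (0.14), liver library 1 (0.105) or liver library 2 (0.0801), within an edgeR and DESeq2 range of 0.00378 to 0.14 over all alternatives.

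The proximal promoters of this ligand and its receptor pair are shown because Flt4 and Nrp2 shared their order across tissues while Vegfc, below, followed one vessel type. RefSeq's table for GRCm38.p6 matched 9 of the 10 genes, Angpt2 being the exception. The 250 bases before the start of each gene are printed 5′ to 3′ on the gene's strand, with each GC box (GGGCGG or its complement) and each ETS core (AGGAAG or its complement) in capitals. The windows lie at chr11:49609429-49609678 (plus strand) for Flt4, chr1:62703067-62703316 (plus strand) for Nrp2 and chr8:54077282-54077531 (plus strand) for Vegfc.
Flt4: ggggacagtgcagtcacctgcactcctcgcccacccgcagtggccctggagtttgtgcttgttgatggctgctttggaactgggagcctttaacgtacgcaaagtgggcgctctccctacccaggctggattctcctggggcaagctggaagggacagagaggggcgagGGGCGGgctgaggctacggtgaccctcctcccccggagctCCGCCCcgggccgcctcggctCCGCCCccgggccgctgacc
Nrp2: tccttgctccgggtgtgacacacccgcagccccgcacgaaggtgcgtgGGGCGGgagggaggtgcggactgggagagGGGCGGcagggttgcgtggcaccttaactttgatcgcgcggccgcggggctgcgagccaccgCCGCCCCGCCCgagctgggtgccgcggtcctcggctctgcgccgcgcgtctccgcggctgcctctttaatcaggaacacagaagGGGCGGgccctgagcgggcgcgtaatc
Vegfc: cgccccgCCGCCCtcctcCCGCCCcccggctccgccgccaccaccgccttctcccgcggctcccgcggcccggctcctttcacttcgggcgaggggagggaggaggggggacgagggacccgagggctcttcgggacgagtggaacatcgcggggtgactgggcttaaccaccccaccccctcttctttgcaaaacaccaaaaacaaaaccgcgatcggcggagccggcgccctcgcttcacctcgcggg
All 3 windows hold GC boxes and none holds the ETS core. Flt4 has 3 GC boxes, Nrp2 has 5, of which 2 overlap, and Vegfc has 2. Across 32851 promoter windows of the same length, 32.7% hold a GC box and 29.5% the ETS core on either strand. The G and C share is 68.4% for Flt4, 72.4% for Nrp2 and 71.6% for Vegfc, against a median of 52.4% over all windows. A match describes the letters alone.

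Tek, Tie1 and Angpt2, the angiopoietin branch, were called by edgeR or DESeq2 in none of the 3 comparisons. By edgeR, Tek and Tie1 had an unadjusted p under 0.05 between brain and lung, and Tie1 between lung and liver. Tek measured 989, 638 and 815 CPM in brain, 641, 409 and 449.8 CPM in lung and 613, 535 and 591 CPM in liver. The brain libraries lay above the liver libraries and overlapped lung by a narrow margin. The log2 difference between brain and lung was 0.70 ± 0.24 (SE, edgeR adjusted p = 0.0699). Tie1 measured 151, 165 and 158 CPM in brain, 195, 338 and 245 CPM in lung and 136, 208 and 112 CPM in liver. Lung lay above brain without overlap, at a brain minus lung difference of -0.72 (adjusted p = 0.154), and the lowest lung library fell below the highest liver library. With library size alone as the scaling, Tie1 was called higher in lung than in liver (1.04, edgeR adjusted p = 0.023), and without liver library 2 as well (1.06, adjusted p = 0.0428), within 0.023 to 0.338 over all alternatives. Angpt2 measured 18.8, 30.7 and 8.38 CPM in brain, 17.1, 12.0 and 24.8 CPM in lung and 11.1, 2.66 and 21.9 CPM in liver. All 3 tissues overlapped, and the spread within a tissue was as wide as between tissues.

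Vegfa, whose product is usually supplied by cells around the vessel, was high in lung. It stood at 488, 523 and 386 CPM in lung, at 26.6, 8.04 and 55.9 CPM in liver and at 3.38, 1.61 and 6.31 CPM in brain. No tissue overlapped another. Vegfa was lower in brain than in lung by 6.94 ± 0.74 log2 units (SE, edgeR adjusted p = 3.67e-05) and below its liver level by 3.00 ± 0.62 (adjusted p = 0.00464), and it was higher in lung than in liver by 3.95 ± 0.64 (adjusted p = 0.00104). Each call held with any 1 library left out, but the sizes moved: brain against liver was -3.60 without brain library 3 and -2.20 without liver library 3, lung against liver was 4.75 without liver library 3, and brain against lung was -7.54 without brain library 3. Alveolar type I cells are also known to make VEGF-A. Their marker Ager measured 8.94, 7.13 and 7.65 CPM in lung, the type II marker Sftpc 2.13, 6.80 and 5.01 CPM, and Epcam was at 0 in 2 of 3 lung libraries. Scgb1a1, which marks club cells, measured 265, 1717 and 539 CPM in lung. The part of epithelial RNA in the Vegfa level was not tested.

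Counted together, 5 of the 10 genes were called between brain and lung, 2 higher in brain (Flt1, Nrp2) and 3 lower (Kdr, Nrp1, Vegfa), where 12.3% of the 13216 genes tested were called in either direction, 5.05% higher and 7.25% lower. Between brain and liver 7 were called, 2 higher (Flt1, Vegfc) and 5 lower (Kdr, Flt4, Nrp1, Nrp2, Vegfa), against 16.2% of all genes, 7.45% higher and 8.72% lower. Between lung and liver 3 were called, Vegfa higher and Flt4 and Nrp2 lower, against 15.1% of all genes, 8.04% higher and 7.02% lower. The libraries did not overlap for 6 genes between brain and lung (34.1% of all genes), 8 between brain and liver (33.0%) and 6 between lung and liver (34.9%). The median log2 difference of the 10 genes was 0.25, -0.88 and -0.22 in the 3 comparisons, and that of all genes tested was 0.00, 0.01 and 0.00. The comparisons share libraries pairwise, and the 10 genes were chosen with earlier results of these data known. With lung library 2 and liver library 2 left out, a setting chosen after seeing the data, the counts were 5, 6 and 3.

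**Figure D2:**
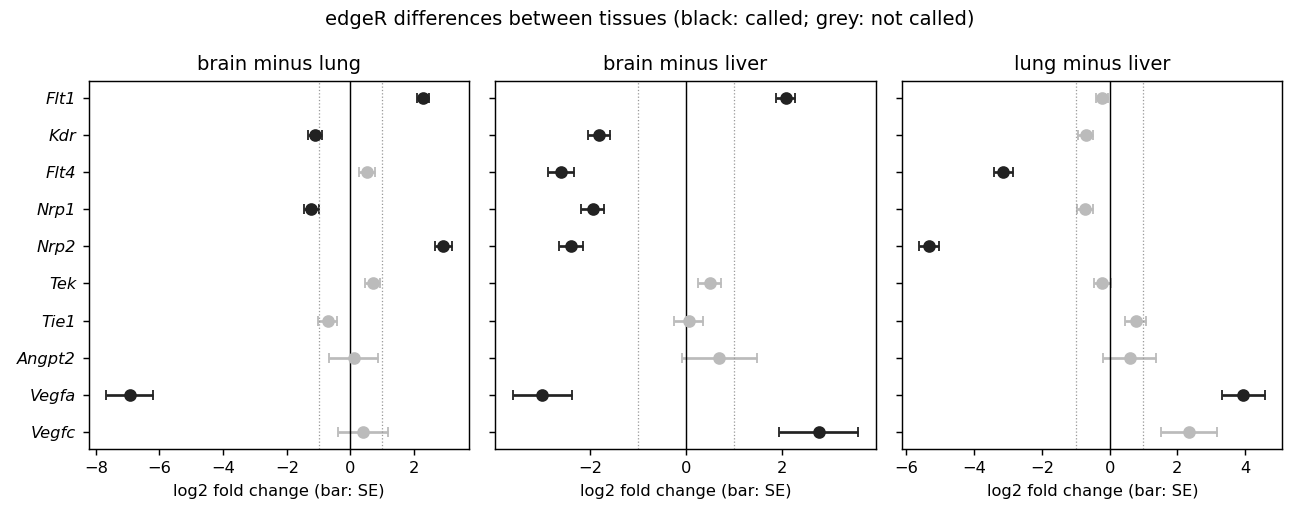
Log2 fold change (x axis, one scale per panel) with its SE for the 10 genes in brain minus lung, brain minus liver and lung minus liver; black points were called, grey points were not, and dotted lines mark a log2 change of 1 in either direction. Nrp2 and Vegfa are called in all 3 panels, while Tek, Tie1 and Angpt2 are called in none.

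Other ligands of the family were low. Of 6 measured, 4 passed the count filter. Figf, the symbol used in the table for VEGF-D, was higher in brain than in liver (29.2, 47.8 and 14.2 against 3.82, 0 and 0.214 CPM, edgeR adjusted p = 0.0313). Svep1, an extracellular protein that binds angiopoietins, was at 0 in the brain libraries and at 9.92, 1.94 and 1.19 CPM in lung, where brain was called lower (adjusted p = 0.0439). No ligand of this list was called by edgeR between lung and liver, where 1 had an unadjusted p under 0.05 (Figf). Angpt1, the Tek agonist, averaged 2.81 CPM in brain, 5.14 CPM in lung and 2.25 CPM in liver, and Vegfb, which binds Flt1, averaged 3.96, 9.79 and 31.2 CPM.

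Among neuropilin ligands and plexins, several semaphorins differed between tissues. Of 11 genes tested, brain exceeded lung for none and fell below it for 4, brain exceeded liver for 3 and fell below it for 5, and lung exceeded liver for 5 and fell below it for 2. Over all genes tested, the shares called higher and lower were 5.05% and 7.25% for brain against lung, 7.45% and 8.72% for brain against liver, and 8.04% and 7.02% for lung against liver. With an unadjusted p under 0.05, 1 gene of the list was higher in brain than in lung. The list's median log2 differences were -1.16, 0.25 and 1.75. Sema3c, a ligand of both neuropilins, averaged 553 CPM in brain and 433 CPM in lung but 0.601 CPM in liver (edgeR adjusted p = 4.11e-06 for brain and 7.52e-06 for lung against liver). Sema3d was found in liver at 97.7, 170.4 and 79.0 CPM and was at 0 in all 3 lung libraries (adjusted p = 0.000386). Sema3f, a ligand of Nrp2, measured 2.33, 4.66 and 2.40 CPM in brain, 181, 388 and 251 CPM in lung and 109, 72.5 and 61.9 CPM in liver. It was therefore lowest in brain, and its difference was called in all 3 comparisons (adjusted p = 2.02e-06, 8.27e-06 and 0.00925). Plxna1, a semaphorin receptor that pairs with neuropilins, averaged 713 CPM in lung against 54.2 CPM in brain and 45.6 CPM in liver.

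Among signalling partners, single genes differed widely between tissues. Of 27 phosphatases, adaptors and signalling genes tested, brain against lung gave 3 called higher and 2 lower, brain against liver 4 and 6, and lung against liver 3 and 7. Against the 12.3%, 16.2% and 15.1% of all genes called in either direction, the 5 of 27 between brain and lung lay near the background. Their median log2 differences were 0.32, -0.58 and -0.31. Vav3, a guanine nucleotide exchange factor, measured 0.117, 0 and 0.0942 CPM in brain and averaged 41.2 CPM in lung and 51.1 CPM in liver (edgeR adjusted p = 1.06e-05 and 4.89e-06). Dab2, an endocytic adaptor, averaged 328 CPM in brain, 54.1 CPM in lung and 1649 CPM in liver, the same order as Nrp2, and was called in each comparison. Ptprb (VE-PTP), the phosphatase that acts on Tek, was higher in liver (15138 ± 2182 CPM) than in brain (5883 ± 326) and lung (4703 ± 481; SD, n = 3). Grb14, an adaptor of Tek, averaged 58.9 CPM in brain, 34.3 CPM in lung and 0.805 CPM in liver. Nos3, the endothelial nitric oxide synthase, was higher in brain (105 ± 22.8 CPM) than in lung (10.6 ± 4.51).

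Genes induced by VEGF or found in tip cells were called higher in lung more often than lower. Of 14 tested, brain against lung gave 4 called lower and none higher, brain against liver 4 higher and 1 lower, and lung against liver 8 higher and none lower. Of all genes tested, brain against lung had 7.25% called lower and 5.05% higher, brain against liver 7.45% higher and 8.72% lower, and lung against liver 8.04% higher and 7.02% lower. In both directions with a count of 0, edgeR gave 0 genes at an unadjusted p under 0.05. The list's median log2 differences were -1.32, 1.40 and 2.36. Apln, a tip-cell ligand, measured 103, 224 and 196 CPM in lung and at most 2.64 CPM in any brain or liver library. Its receptor Aplnr averaged 114 CPM in lung, 10.6 CPM in brain and 0.0711 CPM in liver. Cxcr4, another tip-cell gene, averaged 81.1 CPM in lung against 4.00 CPM in brain, and Pdgfb, the pericyte-recruiting ligand, 209.6 CPM in brain, 203 CPM in lung and 23.9 CPM in liver. Early-response genes, which dissociation also induces, moved with this list. Fos, Jun, Egr1 and Atf3 were all called higher in brain and in lung than in liver, 3 of the 4 were called lower in brain than in lung, and Egr1 averaged 5068 CPM in lung against 339 CPM in brain and 119 CPM in liver. Their part in the list's counts was not tested.

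The single-cell library placed the 10 genes on vessel types of the brain. Of 9405 barcodes, 8931 met the endothelial rule, and cells were then gated by marker genes, none of them among the 10. The gates held 1938 arterial, 5223 capillary, 1202 venous and 129 fenestrated cells, with medians of 5871, 3790.0, 5261 and 4523 UMIs (unique molecular identifiers). A further 171 cells met more than 1 gate and 268 met none. Levels are UMIs summed over a gate per 10000 UMIs, with exact Poisson 95% intervals that cover counting error alone. With 1 library no test between gates was possible, and a difference was counted where it reached 2-fold. The barrier gene Cldn5, used in no vessel gate, stood at 7.51 per 10000 in the fenestrated gate against 40.1 to 52.2 in the other 3. Plvap, a diaphragm protein of fenestrae that helped define that gate, stood at 32.4 there. Mural markers summed to 0.312 per 10000 in the fenestrated gate and to between 0.0442 and 0.0596 in the other 3. Astrocyte markers summed to 2.38 in the fenestrated gate, all from Gja1, and to between 0.841 and 1.28 in the other 3. Microglial markers summed to at most 0.0156 in any gate.

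**Figure D3:**
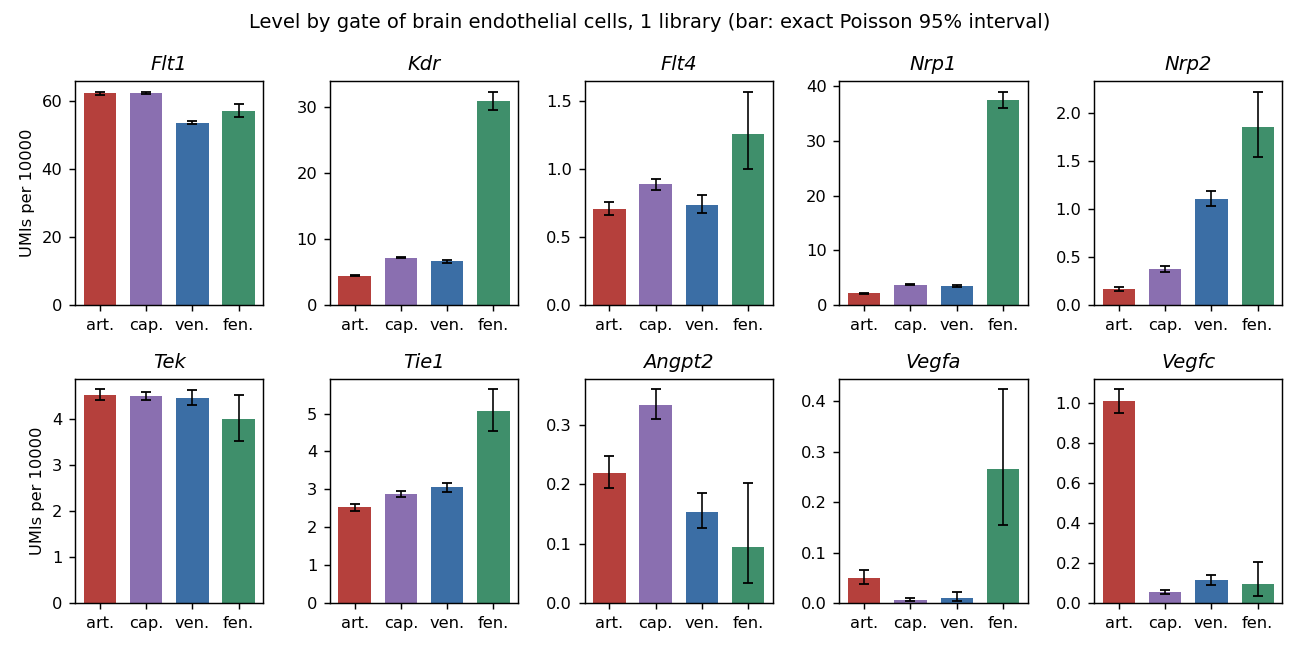
UMIs per 10000 (y axis, one scale per gene, starting at 0) of the 10 genes in arterial (art.), capillary (cap.), venous (ven.) and fenestrated (fen.) cells of the single brain library; black bars are exact Poisson 95% intervals. Kdr and Nrp1 are highest in fenestrated cells at 30.9 and 37.5 per 10000, Vegfc is highest in arterial cells, and Flt1 and Tek vary little.

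The 129 fenestrated cells carried much more of the VEGF-A receptor pair. Kdr stood at 30.9 per 10000 (29.5 to 32.3), against 7.19 in capillary, 6.65 in venous and 4.47 in arterial cells. That is 4.30 times the capillary level (4.10 to 4.50). Nrp1 stood at 37.5 per 10000 (36.0 to 39.0), against 3.73, 3.50 and 2.15, which is 10.0 times the capillary level (9.59 to 10.5). At least 1 Kdr UMI was seen in 94.6% and at least 1 Nrp1 UMI in 95.3% of fenestrated cells. Both genes were also common in the other gates. Kdr was seen in 80.9% of capillary, 87.0% of venous and 77.7% of arterial cells, and Nrp1 in 62.8%, 68.7% and 59.6%. In 193 erythroid barcodes, taken as background at a median of 6955 UMIs, the shares were 2.07% for Kdr and 1.55% for Nrp1.

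Within the fenestrated gate, both genes were higher in cells with more Plvap UMIs, a gene that helped define the gate. The bins of raw Plvap UMIs also differed in depth, with medians of 3248, 2344 and 6004 UMIs from fewest to most Plvap. The 11 cells with a single Plvap UMI held Kdr at 9.84 and Nrp1 at 8.37 per 10000 and had the Cldn5 level of capillaries (53.8). The 41 cells with 2 to 9 Plvap UMIs held Kdr at 26.3 and Nrp1 at 33.9, and the 77 cells with 10 or more held 33.9 and 41.1, with Cldn5 at 3.63 and 3.82. Nrp2 was also highest in fenestrated cells, at 1.85 per 10000 (1.54 to 2.22), 4.93 times the capillary level. Flt1 did not share this pattern: it measured 57.1 per 10000 in fenestrated, 62.4 in capillary, 62.2 in arterial and 53.6 in venous cells, a spread of 1.16-fold. The ratio of Flt1 to Kdr UMIs was therefore 1.85 in fenestrated cells (1.75 to 1.96), 8.07 in venous, 8.68 in capillary and 13.9 in arterial cells.

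**Figure D4:**
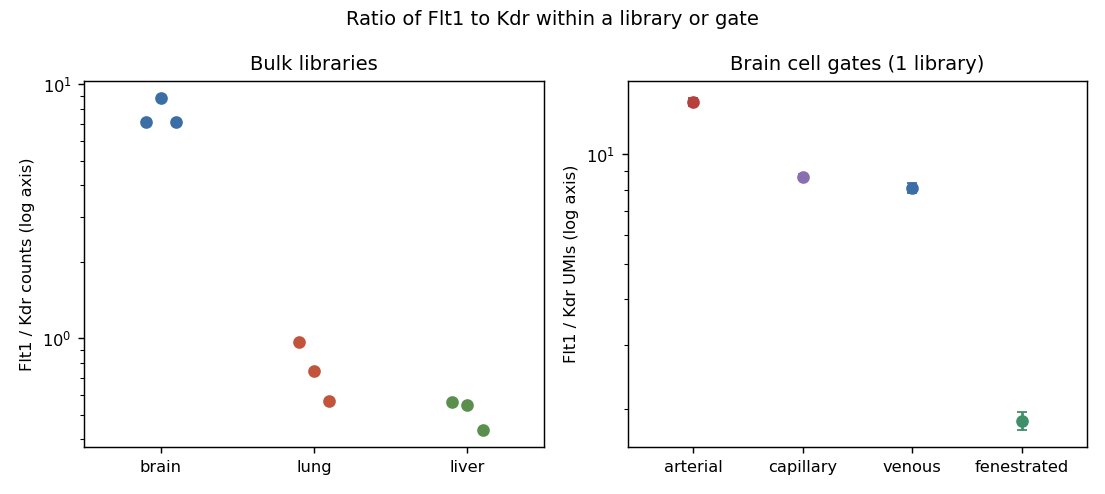
Ratio of Flt1 to Kdr (log axes) in each bulk library (left, counts, points are libraries) and in each gate of the brain single-cell library (right, UMIs, bars are 95% counting intervals, in part smaller than the points). The brain libraries lie at 7.11 to 8.85, above all lung and liver libraries, and fenestrated brain cells at 1.85 lie below the other 3 gates.

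Vegfc marked arterial cells. It stood at 1.01 per 10000 in arterial (0.951 to 1.07), 0.113 in venous, 0.0935 in fenestrated and 0.0527 in capillary cells, so the arterial level was 19.1 times the capillary level (15.8 to 23.4). The arterial gate held 21.7% of endothelial cells and 80.4% of their 1501 Vegfc UMIs. At least 1 Vegfc UMI was seen in 28.3% of arterial and 1.59% of capillary cells, and in 0 of 193 erythroid barcodes, which allows a share of up to 1.55%. After thinning each cell to 1602 UMIs, which left out 53 arterial and 743 capillary cells, the shares were 12.4% and 0.781%.

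Nrp2 ran along vessels in the opposite sense. It stood at 1.10 per 10000 in venous (1.03 to 1.19), 0.376 in capillary and 0.166 in arterial cells. The venous level was 2.94 times the capillary level (2.66 to 3.25) and 6.65 times the arterial level (5.68 to 7.81). Flt4, the receptor it partners, did not follow, at 0.740 in venous, 0.888 in capillary, 0.707 in arterial and 1.26 in fenestrated cells. The fenestrated value was 0.718 after thinning, which was 1 random draw of UMIs per cell. It lay between 1.07 and 1.38 in the other settings tried.

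Binning the endothelial cells outside the fenestrated gate by arterial minus venous markers gave a finer view of the same cells. Nrp2 fell stepwise from 1.68 per 10000 at the venous end (457 cells) through 0.378 in the middle bin (2883 cells) to 0.0962 at the arterial end (866 cells). Vegfc stayed between 0.0430 and 0.195 up to a score of 1, and reached 0.417 at a score of 2 and 1.72 at the arterial end. Kdr and Nrp1 peaked 1 step to the venous side of the middle, at 7.71 and 4.20, and were lowest at the arterial end, at 3.45 and 1.90. Angpt2, the Tek antagonist, was highest between scores of -1 and 2, at 0.310 to 0.362, and low at both ends, at 0.0958 and 0.103. Tek was flat, between 4.35 and 4.57 in every bin. Flt1 rose from 47.9 at the venous end to 64.9 at a score of 2, and stood at 58.8 at the arterial end. Cells with more markers were deeper, with a median of 3306 UMIs in the middle bin and 5466 and 6592 at the ends.

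**Figure D5:**
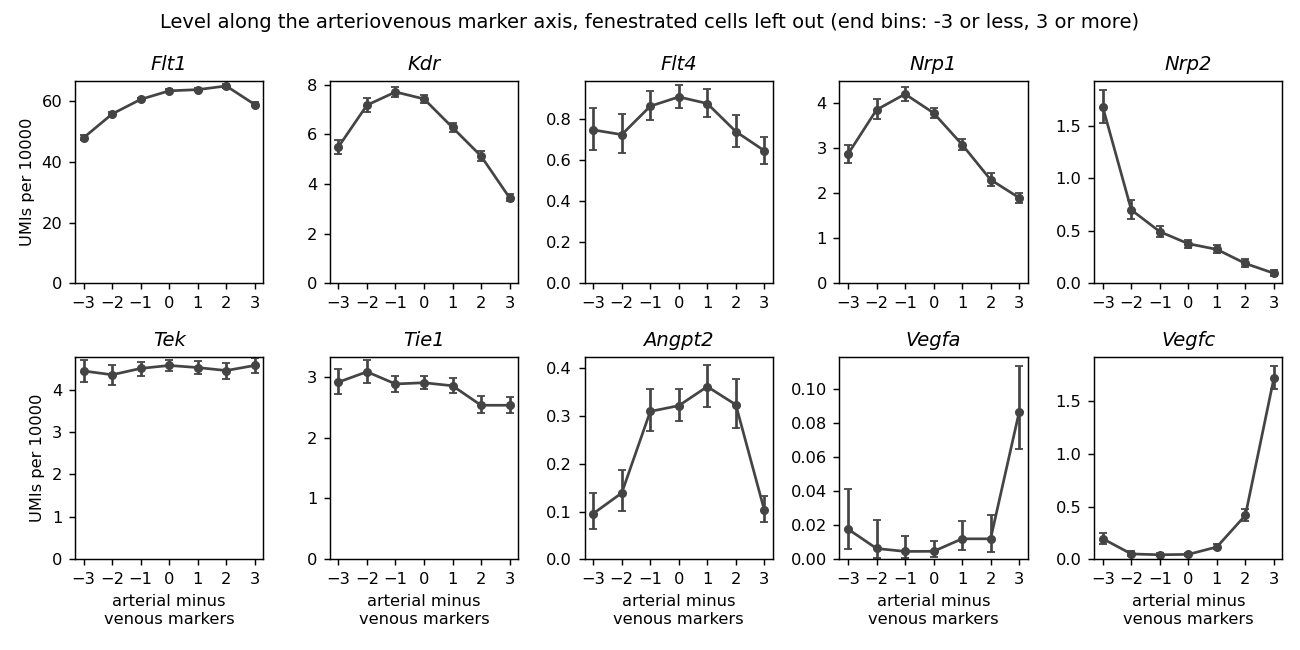
UMIs per 10000 (y axis, one scale per gene, starting at 0) of the 10 genes against the number of arterial minus venous markers (x axis; end bins hold -3 or less and 3 or more) in endothelial cells outside the fenestrated gate; bars are exact Poisson 95% intervals. Nrp2 falls from 1.68 to 0.0962 towards the arterial end, Vegfc rises to 1.72, Angpt2 is lowest at the ends, and Tek stays between 4.35 and 4.57.

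Of the remaining genes, Tek varied least between gates. Tek stood at 4.53, 4.50, 4.47 and 4.00 per 10000 in arterial, capillary, venous and fenestrated cells, a spread of 1.13-fold. Tie1 stood at 2.53, 2.88, 3.05 and 5.06, with fenestrated cells at 1.76 times the capillary level (1.57 to 1.96). Angpt2 stood at 0.219, 0.334, 0.154 and 0.0935, the last from 6 UMIs. Vegfa was close to the limit of detection in the brain library, in which 108 UMIs were found in all 8931 endothelial cells. Its 60 UMIs in arterial cells gave 0.0501 per 10000, its 12 in capillary cells 0.00559, its 7 in venous cells 0.0102 and its 17 in fenestrated cells 0.265. At least 1 Vegfa UMI was seen in 10.9% of fenestrated cells and in 0.191% of capillary cells, the second of these under the 1.55% that 0 of 193 erythroid barcodes allows. After thinning, the fenestrated and capillary shares were 3.54% and 0.0893%.

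A gene entered the 2-fold counts where at least 10 UMIs were expected in the smaller gate, from the rate of both gates pooled. A gene could therefore enter through the gate where it was high. Vegfa entered the arterial comparison only in this way (60 arterial and 12 capillary UMIs), as did Angpt2 the fenestrated comparison (6 fenestrated and 717 capillary UMIs). Neither adds support to the counts below. Between arterial and capillary cells 2 of 10 genes were higher (Vegfa, Vegfc) and 1 was lower (Nrp2), where 3.67% of all genes counted were higher and 1.85% lower, 5.52% in all. Between venous and capillary cells 2 of 9 were higher (Nrp2, Vegfc) and 1 was lower (Angpt2), against 1.79% and 1.43%, 3.23% in all. After thinning, which was 1 random draw of UMIs per cell, Vegfc stood at 0.0750 per 10000 in venous and 0.0516 in capillary cells, under 2-fold. How far these values vary between draws was not measured. Stricter gates asked for 3 markers, which left fewer arterial (985) and venous (521) cells but more capillary (6346) and fenestrated (150) cells. With them Vegfc stood at 0.182 in venous and 0.0803 in capillary cells, above 2-fold. Between fenestrated and capillary cells 3 of 8 were higher (Kdr, Nrp1, Nrp2) and 1 was lower (Angpt2), against 4.16% and 12.0%, 16.2% in all. The median log2 difference of the genes counted was -0.26, -0.09 and 0.66 in these comparisons, and that of all genes counted was -0.02, -0.03 and -0.11. Cells with at least 2 of the 4 early-response genes and at least 5 of their UMIs were counted as early-response cells. These made up 45.3% of arterial, 29.7% of capillary, 42.3% of venous and 62.0% of fenestrated cells. The rule is a fixed number of UMIs, so deeper cells meet it more easily, and capillary cells had the lowest median depth. Per 10000 UMIs the 4 genes summed to 47.2, 39.9, 47.5 and 63.5 in the same order. Their part in these differences was not tested beyond leaving them out. Without them, arterial Vegfa fell from 0.0501 to 0.0175 per 10000, under the 0.0200 that 0 UMIs in the erythroid barcodes allow, a limit that capillary Vegfa was under in either case. Venous Vegfc then stood at 0.104 per 10000 against 0.0530 in capillary cells, just under 2-fold.

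Some pathway genes of the same lists moved with a vessel type. Esm1, a VEGF-induced tip-cell gene, held 590 UMIs in fenestrated cells (9.19 per 10000) and 5 in capillary cells (0.00233). Hlx, another VEGF-induced gene, was 4.42 times higher in fenestrated than in capillary cells, while Sema3c (3.02 against 11.0 per 10000), Grb14 (0.296 against 1.91) and Nos3 (0.950 against 2.14) were lower. In arterial cells Sema3g, a known arterial semaphorin, stood at 3.81 per 10000, 4.20 times the capillary level, and Plcg2 (0.181 against 0.0112) and Sema3f (0.0826 against 0.00373) were also higher. In venous cells Sema3g (0.171) and the netrin receptor Unc5b (0.142) were 5.30 and 4.55 times lower than in capillaries. Of the 15 VEGF-induced and tip-cell genes, 13 entered the arterial comparison (3 higher, 2 lower), 12 the venous (1 higher, 2 lower) and 10 the fenestrated (2 higher, 1 lower). Over all genes counted, 3.67% were higher and 1.85% lower in arterial, 1.79% and 1.43% in venous, and 4.16% and 12.0% in fenestrated cells. The 1 of 10 lower in fenestrated cells lay near that share. Esm1 entered only through its fenestrated UMIs, so it adds no support to the 2 genes higher there. Apln (0 arterial and 38 capillary UMIs) and Aplnr (8 and 99), the 2 lower in arterial cells, entered only through capillary cells. Sema3f (99 arterial and 8 capillary UMIs) entered its comparison only through arterial cells.

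The genes most like each member were ranked by the correlation of log2 CPM over the 9 bulk libraries, which share their tissue groups. Nrp2 was most like Ppfia2, Dab2 and Rnase4 (r = 0.993, 0.991 and 0.989). Flt4 was most like Ptprb, Ccnd2 and Golga7 (r = 0.990, 0.986 and 0.985), and Nrp1 was close to Psd3 and Muc6 (r = 0.992 and 0.987). Kdr was closest to Masp1, Gypc and Gm14023 (r = 0.987, 0.984 and 0.982). Flt1 was closest to Slc22a8, Zic2 and 5430416O09Rik (r = 0.989, 0.988 and 0.988). Slc22a8, an organic anion transporter of the blood-brain barrier, measured 738 ± 157 CPM in brain (SD, n = 3) and 0 in the lung and liver libraries. Vegfa was closest to Glp1r, Rnf141 and Pydc3 (r = 0.982, 0.976 and 0.970), and Vegfc to Tgif1, Snn and Zfp939 (r = 0.975, 0.962 and 0.957). Tie1 was closest to Gm29766 (r = 0.972) and Angpt2 to Zfp839 (r = 0.957).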

How the data were processed

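Bulk RNA was deposited by the authors as raw counts for each gene symbol, and single cells as UMI counts per barcode. How cells were filtered earlier is not given in the sources used here. HTSeq 0.6.1, TopHat, Bowtie2, Cell Ranger 1.2.0 and SAMtools 1.10.2 are among the tools that the submitters' processing notes name, none of them tied to an assay. Strand use in counting was not given, so genes with antisense or overlapping partners are uncertain. The ATAC peaks carry no gene names and were not used here.

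All 9 bulk libraries entered 1 fit with a mean per tissue in edgeR 4.0.16 (R 4.3.3): filterByExpr kept 13216 genes, TMM set the scaling, and glmQLFit (robust) with glmQLFTest gave p-values, adjusted by Benjamini-Hochberg over all genes tested. SE is the log2 fold change divided by the root of the F statistic. The procedure was run on simulated counts whose spread was set well below that of these libraries (edgeR common coefficient of variation 0.766). That run therefore does not measure error rates or power in these data. Libraries of the same number did not deviate together (correlations from -0.003 to 0.078), so the numbers were not taken as pairs.

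An endothelial barcode had at least 2 of Pecam1, Cdh5, Cldn5, Egfl7 and Esam, hemoglobin under 5% of UMIs and fewer than 3 markers of any of 6 other cell types. Arterial and venous gates asked for 2 markers each, the fenestrated gate for Plvap and 1 more, and the capillary gate for 2 capillary markers in cells of no other gate. Erythroid barcodes had at least 20% hemoglobin UMIs and at most 1 endothelial marker. Scrublet (scanpy 1.11.5) called 0 of 9405 barcodes doublets, so its calls gave nothing to remove and doublets were left in. Intervals and floors (3 counts) cover counting error only. All 10 members were named in every comparison, with at most 4 called genes per pathway list and the 3 genes most like each member, of which some are not reported here; Angpt1 and Vegfb fall outside this rule and were chosen after their values were seen. The members and lists were chosen with earlier results of these data known.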

Additional observations from a re-analysis of the deposited data

How the results depend on the processing

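For the 10 genes in 3 bulk comparisons, 459 of 480 recomputed values kept their direction and their side of the threshold, 7 lost their call, 6 gained one and 8 changed sign. Members higher in brain than in liver fell from 2 to 1 (Vegfc lost) when the fit held these tissues alone (Vegfc adjusted p = 0.0619) and without lung library 2 and liver library 2 (0.0851), and were 1 to 2 over single libraries left out. Members higher in lung than in liver rose from 1 to 2 with library size alone (Tie1), with DESeq2 1.42.0 and with no filter on low counts (Vegfc), and were 1 to 2 over single libraries left out. With the replicate block the count was also 2 (Vegfc at 2.82, adjusted p = 0.0272); 2 of 9 libraries correlated best with their own number, and the block changed no other call among the members. Library size alone shifted the median gene by -0.053, 0.158 and 0.212 in brain-lung, brain-liver and lung-liver, and turned Flt1 (0.03) and Tek (0.01) between lung and liver. Leaving out single libraries gave -0.41 to 0.46 for Angpt2 and -0.20 to 1.02 for Vegfc between brain and lung, and -0.13 to 0.35 for Tie1 between brain and liver; Angpt2 was -0.10 without lung library 2 and liver library 2. Over all genes, DESeq2 called 2610 between brain and lung (1625 by edgeR) and 2987 between lung and liver (1991 by edgeR), and the edgeR count for lung and liver was 1312 on removing lung library 3 and 1239 on removing both second libraries. The causes were not tested.

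In single cells, the members highest in a gate numbered 2 arterial, 2 capillary, 0 venous and 6 fenestrated. The share of all genes highest in each gate was not computed, so these counts serve only to compare settings. The fenestrated gate was also the smallest, at 129 cells, where counting error is largest. Thinning was 1 random draw of UMIs per cell, and its spread over draws was not measured. Thinning gave 1 arterial, 3 capillary, 1 venous and 5 fenestrated (Tek highest in venous cells at 4.72, Flt4 in capillary cells at 0.920), and means over cells gave 1 arterial and 3 capillary (Tek at 4.81). Of 240 recomputed values, 73 moved beyond their counting interval; with stricter gates arterial Angpt2 went from 0.219 to 0.117, Nrp2 from 0.166 to 0.0983, Vegfa from 0.0501 to 0.0780 and Vegfc from 1.01 to 1.56. Leaving out doublets could not be run, and leaving out the deepest 5% of barcodes, chosen after seeing the data, changed none of these counts. Angpt2 and Vegfa in fenestrated cells rest on 6 and 17 UMIs.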

Other observations

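Barcodes outside the vessel gates also carried some of the 10 genes. In 20 barcodes with at least 3 mural markers and at most 1 endothelial marker, Nrp1 stood at 1.53 UMIs per 10000 (15 UMIs, 0.858 to 2.53) and was seen in 40.0% of barcodes, against 1.55% of 193 erythroid barcodes. Kdr, Flt4, Tek and Vegfc had 0 UMIs in these 20 barcodes, which allows up to 0.306 per 10000 for each. The 171 cells that met more than 1 gate held Kdr at 10.5 and Nrp1 at 8.44 per 10000 with Plvap at 5.59, between the capillary and fenestrated levels.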
